A study of Homo sapiens with 16 samples.

Results

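SMO and MEST are 2 of 10 neighbouring protein-coding genes of chromosome 7q32 whose RNA was followed in LNCaP cells with and without p53. SMO and MEST were chosen by their near loss of counts in p53 KO against WT cells, and the other 8 (AHCYL2, STRIP2, NRF1, UBE2H, ZC3HC1, KLHDC10, CEP41 and COPG2) were added because they lie beside them, to see whether the loss extends to the neighbourhood. The 10 are among 62754 genes in the deposited counts, and 10 of 10 passed the filter on low counts, which left 18549 genes to test. The low counts of SMO and MEST in p53 KO cells therefore describe how they were chosen and are given below with no test. The genotype contrasts of the 8 neighbours and the responses of all 10 to the drug were not the stated grounds of choice. The list was still drawn up with earlier results of these data known, and it leaves out 6 other tested genes of the interval, which are given below.

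LNCaP is a human prostate cancer line of luminal type that depends on androgen signalling. RNA was sequenced from 16 libraries in 4 groups of 4. They were p53 KO cells given 5 µM GCN2iB, p53 KO cells given vehicle, WT cells given 5 µM GCN2iB and WT cells given vehicle, with the treatment lasting 48 h in each and DMSO as the vehicle. GCN2iB is an ATP-competitive inhibitor of GCN2, the kinase that senses uncharged tRNA and phosphorylates the translation factor eIF2. The p53 KO cells were made with CRISPR, and the labels give no other feature of the line or its culture that differed between the 4 groups. They do not say whether the KO cells were 1 clone or a pool, and give no culture history of the KO and WT cells. Nothing in the labels says that the 4 libraries of a group came from separate cultures, so each p-value rests on library-to-library spread alone, which may be technical.

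SMO encodes the transmembrane protein that carries the Hedgehog signal into the cell: without ligand it is held back by the receptor PTCH1, and once released it acts at the primary cilium to turn GLI transcription factors into activators. MEST is an imprinted gene of the alpha/beta hydrolase fold family, expressed in most fetal tissues from the paternal copy, and its antisense partner MESTIT1 starts within it. Among the neighbours, NRF1 is a transcription factor of genes for mitochondrial proteins, UBE2H is a ubiquitin-conjugating enzyme that works with the CTLH ligase, KLHDC10 is a substrate receptor of a cullin ubiquitin ligase and ZC3HC1 is a protein of the nuclear basket. CEP41 is a centrosomal and ciliary protein, COPG2 is a coat subunit of Golgi vesicles, AHCYL2 belongs to the S-adenosylhomocysteine hydrolase-like family, and STRIP2 is a scaffold of the STRIPAK phosphatase complex.

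The 10 genes fill 1480 kb of GRCh38 in GENCODE release 29. SMO lies on the plus strand at chr7:129188872-129213545, and AHCYL2 begins 11477 bases after its end, on the same strand at chr7:129225023-129430211. STRIP2 (chr7:129434433-129488399) and NRF1 (chr7:129611714-129757082) follow on the plus strand, then UBE2H (chr7:129830732-129952949) and ZC3HC1 (chr7:130018286-130051451) on the minus strand. KLHDC10 (chr7:130070510-130135720) is on the plus strand and CEP41 (chr7:130393771-130442433) on the minus strand. MEST lies on the plus strand at chr7:130486171-130506465, with its start 1297 kb from the start of SMO. The 3′ end of COPG2, which is transcribed toward MEST on the minus strand at chr7:130506238-130668748, shares 228 bases with the end of MEST.

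RefSeq promoter entries (GRCh38.p14) matched 7 of the 10 genes, with none for NRF1, UBE2H and KLHDC10. The 250 bases before 5 of these starts are shown, 5′ to 3′ along each gene's own strand with every CG dinucleotide in capitals, because they set the promoters of both low genes beside those of AHCYL2 and COPG2, the neighbours that lie closest to each of them. They cover chr7:129188383-129188632 for SMO, chr7:129224780-129225029 for AHCYL2, chr7:130485925-130486174 for the first MEST start, chr7:130491808-130492057 for a later MEST start and chr7:130668749-130668998, minus strand, for COPG2.
SMO: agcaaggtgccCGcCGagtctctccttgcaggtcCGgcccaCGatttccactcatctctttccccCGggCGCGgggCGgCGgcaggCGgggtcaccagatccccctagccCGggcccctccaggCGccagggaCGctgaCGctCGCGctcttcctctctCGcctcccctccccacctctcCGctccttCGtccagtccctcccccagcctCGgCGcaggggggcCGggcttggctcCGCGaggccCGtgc
AHCYL2: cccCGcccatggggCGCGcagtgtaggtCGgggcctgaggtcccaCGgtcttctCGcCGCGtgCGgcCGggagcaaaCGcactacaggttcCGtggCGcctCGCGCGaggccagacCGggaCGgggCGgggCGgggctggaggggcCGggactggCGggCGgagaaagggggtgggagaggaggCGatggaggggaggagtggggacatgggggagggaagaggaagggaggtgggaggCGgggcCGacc
MEST, first start: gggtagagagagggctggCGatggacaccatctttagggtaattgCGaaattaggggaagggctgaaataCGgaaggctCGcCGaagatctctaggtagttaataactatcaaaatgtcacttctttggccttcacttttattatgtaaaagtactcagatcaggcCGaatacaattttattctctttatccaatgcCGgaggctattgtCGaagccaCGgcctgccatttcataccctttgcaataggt
MEST, later start: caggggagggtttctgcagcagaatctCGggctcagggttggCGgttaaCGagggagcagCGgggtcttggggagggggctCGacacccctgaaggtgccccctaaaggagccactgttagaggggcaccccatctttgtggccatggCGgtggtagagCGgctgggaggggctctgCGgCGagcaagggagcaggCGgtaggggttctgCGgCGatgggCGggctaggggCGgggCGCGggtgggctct
COPG2: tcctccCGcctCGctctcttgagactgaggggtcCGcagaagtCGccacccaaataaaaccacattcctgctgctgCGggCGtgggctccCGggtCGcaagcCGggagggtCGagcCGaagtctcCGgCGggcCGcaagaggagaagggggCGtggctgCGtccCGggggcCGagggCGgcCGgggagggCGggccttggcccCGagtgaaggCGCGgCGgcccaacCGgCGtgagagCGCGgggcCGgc
The SMO window held 25 CG dinucleotides and was 73.6% G or C, and the AHCYL2 window held 26 at 74.8%. The MEST windows shown held 9 CG dinucleotides at 44.0% G or C and 16 at 68.4%. Other MEST starts, not shown, had windows with 20, 11 and 20 CG dinucleotides at 62.0%, 46.8% and 69.6% G or C. The COPG2 window held 30 at 73.6%, against a median of 11 over 35114 RefSeq windows of the same length. By CG content, the windows shown for SMO, AHCYL2 and COPG2 were all above the upper quartile of 23. AHCYL2 also has later starts, not shown, whose windows held 3, 3, 0, 2 and 3 CG dinucleotides, beside a lower quartile of 3. The motif GGGCGG, searched on both strands and overlapping allowed, was found 1 time in the SMO window, 4 times in that of AHCYL2, 0 times in the first and 2 times in the later MEST window shown, 2 times in that of COPG2 and in 42.6% of all windows. No match to the p53 half-site motif, which reads alike on both strands, was found in the windows of SMO and MEST, against 5.57% of all windows, which says only that these letters are not in these stretches. A later AHCYL2 window, chr7:129387808-129388057, held 1 match.

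Total counts per library ranged from 17418072 to 39915685. The check of the knockout came from CDKN1A, a cell cycle inhibitor that p53 activates, which averaged 42.9 ± 5.97 CPM (reads scaled to a common library total) in p53 KO cells with GCN2iB and 37.5 ± 3.73 CPM in p53 KO cells with vehicle, against 464 ± 60.1 CPM in WT cells with GCN2iB and 275 ± 21.1 CPM in WT cells with vehicle (SD, n = 4 each). All 9 luminal prostate markers looked for were tested and summed to 5352 to 6812 CPM per library. Of 3 basal markers KRT5 and TP63 were under 3 counts in every library, and the 3 together, with only KRT14 tested, summed to 3.20 to 4.26 CPM in p53 KO libraries and to 2.05 to 2.79 CPM in WT libraries. Of 4 immune and blood markers 0 were tested, with PTPRC, CD3E and HBB under 3 counts in every library and a sum of at most 0.279 CPM. Of 5 stromal markers 4 were tested, and the 5 summed to 14.6 to 20.3 CPM in p53 KO and to 17.9 to 26.1 CPM in WT libraries. The endothelial pair PECAM1 and VWF, of which only VWF passed the filter, summed to 8.84 to 12.9 CPM in p53 KO libraries and to 17.6 to 23.0 CPM in WT libraries, and the part of any of these classes in the results was not tested. The library p53 KO GCN2iB 4 stood apart from the other 3 of its group over all genes, with a chi-square per degree of freedom of 25.9 to 35.0 against 3.41 to 3.82 among those 3. Without it the 3 neighbours called under GCN2iB and the 3 drug responses called in p53 KO cells still passed, and COPG2 passed as well. In a bulk library, fewer cells that express a gene and less of its RNA per cell cannot be told apart.

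SMO RNA in p53 KO cells was about 1 part in 16 of its level in WT cells, with or without the drug. The 4 libraries of p53 KO cells with GCN2iB held 0.586, 0.222, 0.230 and 0.466 CPM of SMO, and those of p53 KO cells with vehicle 0.478, 0.724, 0.741 and 0.437 CPM. WT cells with GCN2iB held 7.95, 6.05, 6.62 and 5.96 CPM of SMO, and WT cells with vehicle 8.61, 9.64, 10.5 and 9.15 CPM. Every p53 KO library was far below every WT library, and the 4 WT libraries with the drug were all below the 4 with vehicle. In counts, SMO had 4 to 29 reads in a p53 KO library and 170 to 338 in a WT library. The log2 difference of p53 KO minus WT was -4.04 ± 0.21 (SE) under GCN2iB and -3.997 ± 0.18 under vehicle, a 16.5-fold and a 15.97-fold difference. The KO means were 5.66% and 6.28% of the WT means.

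MEST was lower still. The p53 KO libraries with GCN2iB held 0.335, 0.317, 0.288 and 0.233 CPM of MEST, and the p53 KO libraries with vehicle 0.645, 0.271, 0.204 and 0.601 CPM. The WT libraries held 8.44, 6.89, 8.25 and 5.36 CPM with GCN2iB and 8.91, 8.66, 8.66 and 9.51 CPM with vehicle. Again no p53 KO library came near a WT library, with 5 to 27 reads in the KO libraries against 176 to 344 in the WT libraries. The log2 difference of p53 KO minus WT was -4.60 ± 0.24 under GCN2iB and -4.34 ± 0.21 under vehicle, 24.3-fold and 20.3-fold, which left 4.05% and 4.82% of the WT means. Ordered by the log2 difference from the largest fall among 18549 genes, MEST stood at place 7 under GCN2iB and 11 under vehicle, and SMO at 14 and 16.

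The WT library with GCN2iB numbered 4 held the lowest MEST level of its group, 5.36 CPM against a mean of 7.86 CPM in the other 3, which is 33.1% of the distance from that mean to the p53 KO mean. For SMO the same library covered 14.1% of that distance, and for CDKN1A 26.4%. WT GCN2iB 2, measured in the same way, covered 12.2% for SMO. The part of WT GCN2iB 4 in the values was not tested, and the drug responses are given without it where it matters.

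MESTIT1, the non-coding antisense gene that shares 4863 bases with MEST, had 0 reads in the 8 p53 KO libraries and 13 in the 8 WT libraries, too few to test. The source of the notes on processing gives no strand setting, so reads in the overlaps of MEST with MESTIT1 and COPG2 cannot be assigned to 1 strand. The gene rows of MIR96, MIR183 and MIR335 in the interval had 0 reads in all libraries and that of MIR182 had 1.

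**Figure D1:**
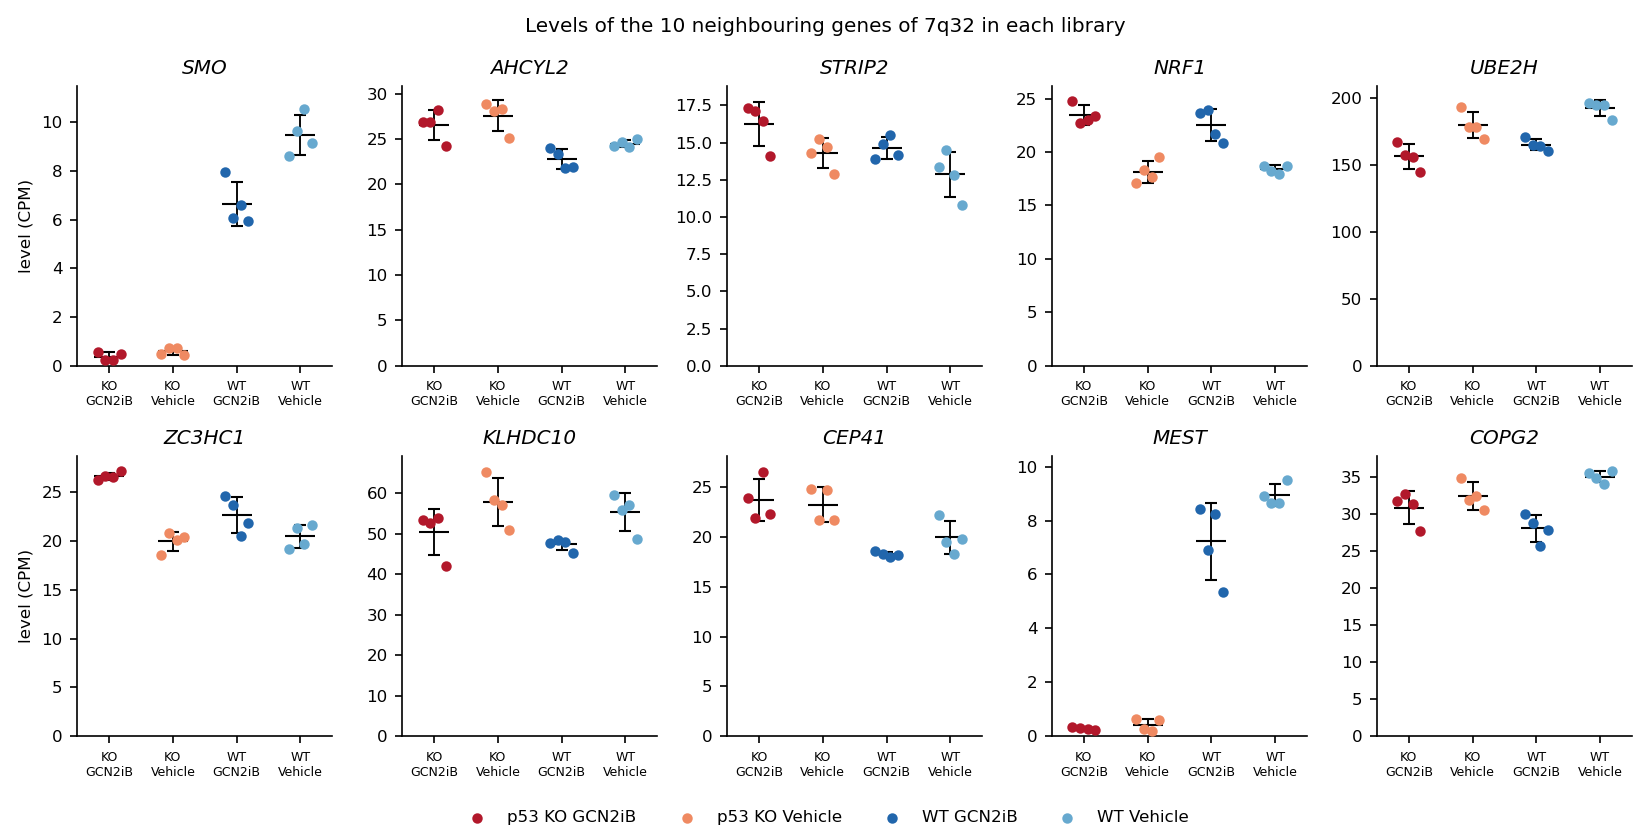
Level of each of the 10 genes in CPM (linear axes from 0) in the 16 libraries, with the p53 KO groups left of the WT groups; points are libraries and the black bars are the mean and SD of 4. SMO and MEST lie between 0.204 and 0.741 CPM in p53 KO libraries and between 5.36 and 10.5 CPM in WT libraries, whereas the p53 KO and WT points of the other 8 genes lie at similar heights.

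The 8 neighbours did not share the loss. Tested with edgeR's quasi-likelihood test and Benjamini-Hochberg adjustment over all 18549 genes, 0 of the 8 were lower in p53 KO cells under GCN2iB and 0 under vehicle, and 0 were lower at an unadjusted p under 0.05 in either. DESeq2 and limma voom also called 0 lower in each, as did every alternative tried (18 settings per contrast, the one reported included). Higher in p53 KO cells were 3 of 8 under GCN2iB and 1 of 8 under vehicle. Over all genes 23.9% were called under GCN2iB (12.7% higher, 11.2% lower) and 21.7% under vehicle (9.63% higher, 12.1% lower). The lowest 95% confidence bound among the 8 was -0.20 under GCN2iB and -0.25 under vehicle on the log2 scale, so the intervals reached no further than a 1.15-fold and a 1.19-fold fall. The median log2 difference of the 8 was 0.14 under GCN2iB and 0.02 under vehicle, beside 0.03 and 0.01 over all genes tested.

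CEP41, the member whose start lies just before MEST, went the other way. It had 23.9, 21.9, 26.6 and 22.3 CPM in p53 KO cells with GCN2iB, against 18.6, 18.2, 18.02 and 18.2 CPM in WT cells with GCN2iB. With vehicle it had 24.8, 21.7, 24.7 and 21.7 CPM in p53 KO cells, against 22.2, 19.5, 18.3 and 19.8 CPM in WT cells. The groups did not overlap with the drug, and with vehicle 1 WT library lay above 2 KO libraries. CEP41 was higher in p53 KO cells by 0.37 ± 0.08 log2 under GCN2iB (adjusted p = 0.00117) and by 0.23 ± 0.08 under vehicle (adjusted p = 0.0367). The call under vehicle ended when any of 5 libraries was left out, namely WT Vehicle 2, 3 or 4 (adjusted p = 0.0960, 0.147 and 0.0758) and p53 KO Vehicle 1 or 3 (adjusted p = 0.108 and 0.133).

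AHCYL2, which begins closest to SMO, had 26.8, 26.9, 28.2 and 24.3 CPM in p53 KO cells with GCN2iB against 24.1, 23.4, 21.8 and 21.9 CPM in WT cells with GCN2iB. Under vehicle it averaged 27.6 ± 1.71 CPM in p53 KO cells and 24.5 ± 0.423 CPM in WT cells. Its 4 KO libraries were all above the 4 WT libraries under both treatments, though by little: 0.22 ± 0.07 log2 under GCN2iB (adjusted p = 0.0210) and 0.17 ± 0.07 under vehicle (adjusted p = 0.0712). The call under GCN2iB was lost without WT GCN2iB 2, 3 or 4 or p53 KO GCN2iB 1, 2 or 3, with adjusted p-values of 0.0546 to 0.116.

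ZC3HC1 had 26.2, 26.7, 26.5 and 27.1 CPM in p53 KO cells with GCN2iB against 24.6, 23.6, 20.5 and 21.8 CPM in WT cells with GCN2iB, and the groups did not overlap. With vehicle it averaged 19.96 ± 0.980 CPM in p53 KO cells and 20.5 ± 1.19 CPM in WT cells, and there the groups overlapped. The difference was 0.24 ± 0.07 log2 under GCN2iB (adjusted p = 0.0157) and -0.04 ± 0.07 under vehicle (adjusted p = 0.752). The call under GCN2iB was lost without WT GCN2iB 3 or 4 (adjusted p = 0.125 and 0.0784) and without p53 KO GCN2iB 1 or 3 (adjusted p = 0.0533 and 0.0536).

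COPG2, whose end overlaps that of MEST, had 31.7, 32.7, 31.3 and 27.6 CPM in p53 KO cells with GCN2iB against 30.0, 28.7, 25.7 and 27.8 CPM in WT cells with GCN2iB. With vehicle it had 34.9, 31.9, 32.3 and 30.5 CPM in p53 KO cells against 35.5, 34.9, 34.0 and 35.7 CPM in WT cells. Both pairs of groups overlapped, and neither difference passed the test (0.13 ± 0.07 log2, adjusted p = 0.164, and -0.11 ± 0.07 log2, adjusted p = 0.265). Without p53 KO GCN2iB 4, COPG2 passed as higher under GCN2iB (0.19 log2, adjusted p = 0.0464). The 95% interval under vehicle, -0.25 to 0.03, held at most a 1.19-fold fall, beside a 20.3-fold lower level of MEST from the same libraries.

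The remaining neighbours also kept their level. NRF1 averaged 23.5 ± 0.919 CPM in p53 KO and 22.5 ± 1.501 CPM in WT cells with GCN2iB, and 18.1 ± 1.035 and 18.4 ± 0.379 CPM with vehicle. UBE2H, the most abundant of the 10, averaged 157 ± 9.11 CPM in p53 KO and 165 ± 4.20 CPM in WT cells with GCN2iB, and 180 ± 9.88 CPM in p53 KO and 193 ± 5.90 CPM in WT cells with vehicle. STRIP2 ranged from 12.9 to 17.3 CPM over the p53 KO libraries and from 10.8 to 15.5 CPM over the WT libraries. KLHDC10 ranged from 42.0 to 65.3 CPM over the p53 KO libraries and from 45.4 to 59.7 CPM over the WT libraries. For each of these 4 genes the KO and WT libraries overlapped under both treatments, with log2 differences between -0.10 and 0.15.

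Set against the length of their annotated exons, SMO and MEST were already among the lower-expressed genes of the stretch in WT cells. In WT cells with vehicle, UBE2H stood highest at 29.6 ± 0.907 CPM per kb, followed by COPG2 at 8.46 ± 0.180, KLHDC10 at 8.37 ± 0.709 and ZC3HC1 at 6.79 ± 0.394. NRF1 at 4.47 ± 0.0918 and AHCYL2 at 3.57 ± 0.0617 CPM per kb came next. SMO stood at 2.20 ± 0.189 CPM per kb, STRIP2 at 2.19 ± 0.259, MEST at 1.86 ± 0.0834 and CEP41 at 1.59 ± 0.131. COPG2 and KLHDC10, and SMO and STRIP2, differed by less than the spread of either. In p53 KO cells with vehicle, SMO and MEST fell to the bottom of this order, at 0.138 and 0.0898 CPM per kb.

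The interval from the start of SMO to the end of COPG2 held 44 annotated genes in the counts file, of which 16 were tested. The 28 untested ones reached at most 0.0747 CPM in a group mean. Apart from the 10 genes, the 6 tested ones were SMKR1, TMEM209, CPA5, CDC26P1, ENSG00000273329 and ENSG00000240571. Of these, TMEM209, which encodes a protein of the nuclear envelope, was higher in p53 KO cells under GCN2iB, at 47.7 CPM against 40.1 CPM in WT cells (0.25 log2, adjusted p = 0.00557). Under vehicle it had 44.3 CPM in p53 KO cells and 39.3 CPM in WT cells (0.18 log2, adjusted p = 0.0504). Of the 14 tested genes of the interval other than SMO and MEST, 4 were higher under GCN2iB (28.6%) and 1 under vehicle (7.14%). Over all genes 12.7% and 9.63% were called higher, and 11.2% and 12.1% lower. By edgeR 0 of the 14 were lower in either contrast, also at an unadjusted p under 0.05. The lowest confidence bound among them, -0.67 log2 under vehicle, belonged to CPA5, a carboxypeptidase gene with group means of 0.206 to 0.286 CPM, so a change of that gene was hardly detectable at this depth.

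Widening the view by 2 Mb on each side gave 45 tested genes other than SMO and MEST. Under GCN2iB 7 of them were higher in p53 KO cells and 1 was lower, and under vehicle 4 were higher and 2 lower, 17.8% and 13.3% of the 45 beside 23.9% and 21.7% of all genes. None of these was called with at least a 2-fold fall, a call made for 1.91% of all genes under GCN2iB and for 1.85% under vehicle. Several of the called genes lay outside the 10-gene stretch and are named after their values were seen. CCDC136 was higher in p53 KO cells by 0.59 log2 under GCN2iB (adjusted p = 0.000335) and by 0.61 under vehicle (adjusted p = 0.000134), and CALU, a calcium-binding protein of the secretory pathway, by 0.26 and 0.22. PODXL, a sialomucin of the cell surface, was lower by 0.28 log2 under GCN2iB, adjusted p = 0.00643, the largest fall called among the 45. LINC-PINT, a long non-coding RNA beyond COPG2, was higher in p53 KO cells with vehicle, at 3.70 CPM against 2.57 CPM in WT cells (0.54 log2, adjusted p = 0.00640). With GCN2iB it had 2.88 CPM in p53 KO cells and 2.37 CPM in WT cells (adjusted p = 0.210). TSPAN33, the nearest tested gene before SMO, did not pass in either contrast (0.17 log2, adjusted p = 0.223, under GCN2iB and 0.00 log2, adjusted p = 0.995, under vehicle). ENSG00000230626, which starts 0.062 Mb before SMO, had the lowest log2 difference of the 45 under vehicle. It was -0.70 (95% interval -1.37 to -0.02, adjusted p = 0.139), and -0.14 under GCN2iB (adjusted p = 0.808), so it passed in neither.

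The nearest genes of chromosome 7 called at least 2-fold lower in p53 KO cells lay outside the 2 Mb flanks. Under GCN2iB they lay 18.65 Mb before SMO (ENSG00000226965) and 19.71 Mb after COPG2 (ZNF775-AS1), and under vehicle 12.23 Mb before (ST7-AS1) and 15.45 Mb after (CNTNAP2). In each contrast 13 of the 816 tested genes of the whole chromosome met this call, SMO and MEST left out. Over all genes 1.91% met it under GCN2iB and 1.85% under vehicle. Genes this sparse lie far apart in any case, so the distances are a description.

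**Figure D2:**
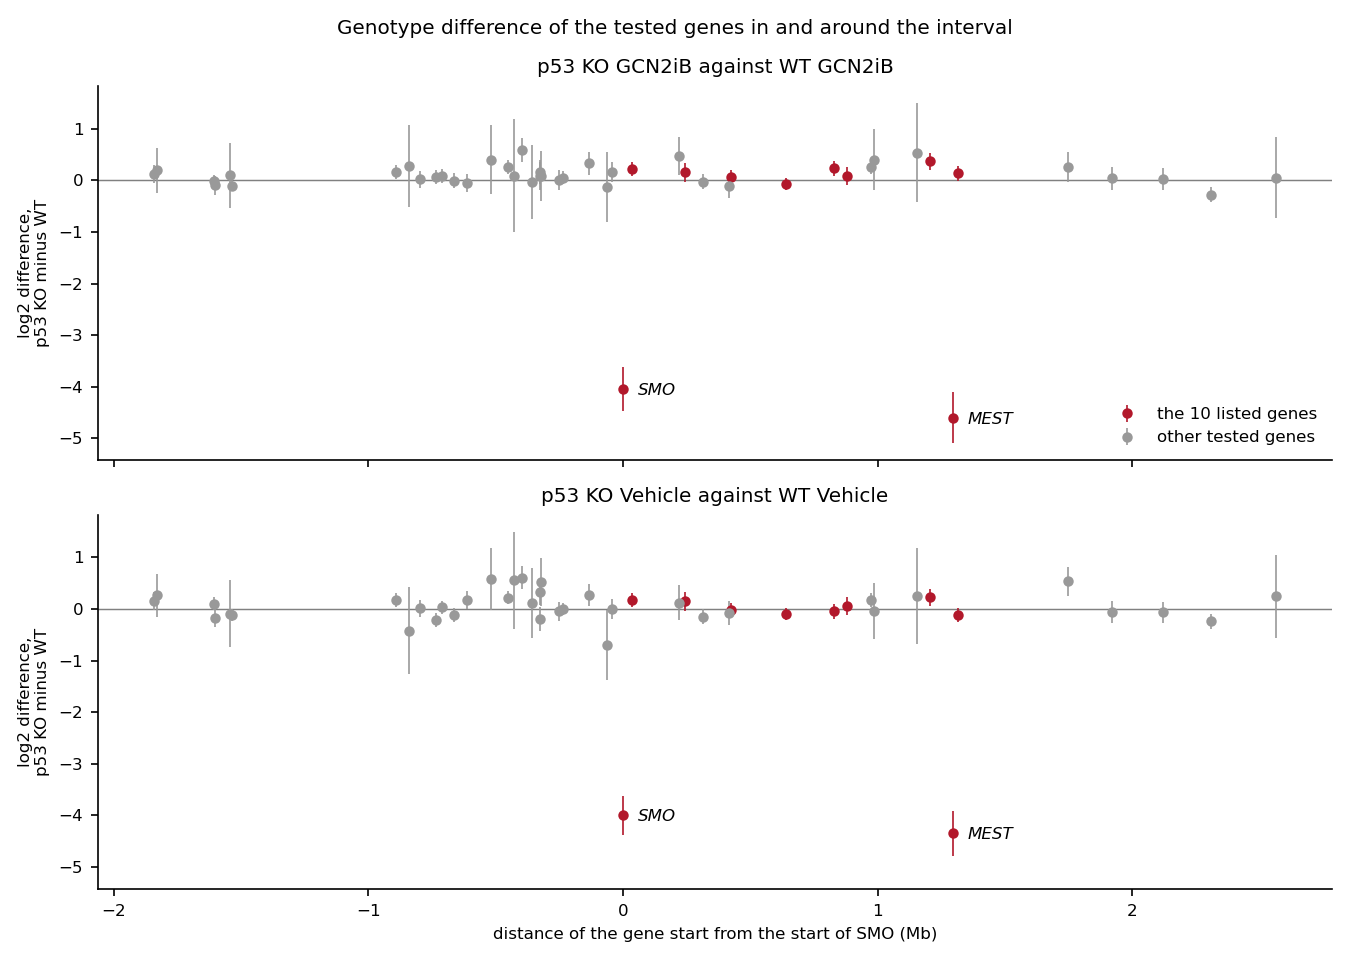
Log2 difference of p53 KO minus WT (vertical axis, bars are 95% confidence intervals) of the 47 tested genes by the distance of their start from that of SMO in Mb, with GCN2iB in the upper panel and vehicle in the lower; red points are the 10 genes and grey points the other tested genes up to 2 Mb outside. SMO and MEST lie near -4, and none of the 45 others lies below -0.70.

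GCN2iB changed a few of the 10 genes, by less than 1.5-fold in the genes that passed the test. In p53 KO cells 2 of 10 were higher and 1 was lower with the drug, beside 20.1% of all genes called (11.4% higher, 8.71% lower). In WT cells 1 of 10 was higher and 3 were lower, beside 25.2% of all genes (11.6% higher, 13.6% lower). NRF1 was higher with the drug in both genotypes, and UBE2H was lower in both. The drug and genotype contrasts share their libraries, so their values are not independent.

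NRF1 had 24.8, 22.7, 23.0 and 23.4 CPM in p53 KO cells with GCN2iB against 17.1, 18.3, 17.7 and 19.5 CPM with vehicle. In WT cells it had 23.7, 23.9, 21.6 and 20.8 CPM with GCN2iB against 18.7, 18.2, 17.97 and 18.7 CPM with vehicle. All 8 libraries with the drug were above all 8 with vehicle. The rise was 0.37 ± 0.07 log2 in p53 KO cells (adjusted p = 0.000390) and 0.29 ± 0.07 in WT cells (adjusted p = 0.00320).

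UBE2H had 167, 157, 156 and 145 CPM in p53 KO cells with GCN2iB against 193, 178, 179 and 170 CPM with vehicle. In WT cells it had 171, 165, 165 and 161 CPM with GCN2iB against 196, 195, 195 and 184 CPM with vehicle. Within each genotype the drug libraries were all below the vehicle libraries. The fall was -0.20 ± 0.06 log2 in p53 KO cells (adjusted p = 0.0145) and -0.22 ± 0.06 in WT cells (adjusted p = 0.00632). The p53 KO call was lost without p53 KO Vehicle 1 (adjusted p = 0.0517).

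SMO itself was lower with GCN2iB in WT cells, the one genotype in which it was well measured. With the WT values given above, it averaged 6.64 ± 0.917 CPM with GCN2iB and 9.48 ± 0.816 CPM with vehicle, a log2 difference of -0.52 ± 0.14 (adjusted p = 0.00780). Without the WT library with GCN2iB numbered 4 it was -0.45 (adjusted p = 0.0385). The p53 KO means were 0.376 ± 0.180 CPM with GCN2iB and 0.595 ± 0.160 CPM with vehicle, and the log2 difference of -0.56 ± 0.28 did not pass (adjusted p = 0.172). At 48 and 89 reads in all per group, a change of that size was not detectable.

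MEST averaged 7.24 ± 1.43 CPM in WT cells with GCN2iB and 8.94 ± 0.400 CPM with vehicle. Its 4 drug libraries were all below the 4 vehicle libraries, yet the log2 difference of -0.31 ± 0.15 did not pass (adjusted p = 0.146), and without WT GCN2iB 4 it was -0.17. For p53 KO cells it was -0.56 ± 0.35 (adjusted p = 0.284), from 35 and 66 reads.

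ZC3HC1 and COPG2 each responded in 1 genotype. ZC3HC1 was higher with GCN2iB in p53 KO cells, at 26.6 ± 0.367 CPM against 19.96 ± 0.980 CPM with vehicle (0.42 ± 0.07 log2, adjusted p = 0.000173), and did not pass in WT cells, at 22.6 ± 1.83 CPM against 20.5 ± 1.19 CPM (0.14 ± 0.07 log2, adjusted p = 0.144). COPG2 was lower with GCN2iB in WT cells, at 28.1 ± 1.81 CPM against 35.0 ± 0.746 CPM with vehicle (-0.32 ± 0.07 log2, adjusted p = 0.00145). In p53 KO cells COPG2 had 30.8 ± 2.21 CPM with GCN2iB and 32.4 ± 1.83 CPM with vehicle (-0.07 ± 0.07 log2, adjusted p = 0.494). A difference between the genotypes' responses was not shown for either. By edgeR's test of the interaction, the response in p53 KO cells minus that in WT cells was 0.27 ± 0.10 log2 for ZC3HC1 (unadjusted p = 0.0107, adjusted p = 0.395) and 0.25 ± 0.10 for COPG2 (unadjusted p = 0.0176, adjusted p = 0.436). Of the 10 genes, edgeR, DESeq2 and limma voom each called 0 for the interaction and found 2 at an unadjusted p under 0.05. Over all genes edgeR called 1 (0.00539%), limma voom 1 and DESeq2 38, and 1754 of 18549 were at an unadjusted p under 0.05 by edgeR.

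KLHDC10 was lower by 0.20 log2 in p53 KO cells (adjusted p = 0.0980) and by 0.22 in WT cells (adjusted p = 0.0528) with GCN2iB, and passed in neither. STRIP2 differed by 0.19 log2 in both genotypes (adjusted p = 0.146 in p53 KO and 0.142 in WT cells). Fitted with replicate number as a block, KLHDC10 and STRIP2 passed in both genotypes, as given below. AHCYL2 (-0.06 and -0.10) and CEP41 (0.02 and -0.12, p53 KO first) showed no difference past the test.

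**Figure D3:**
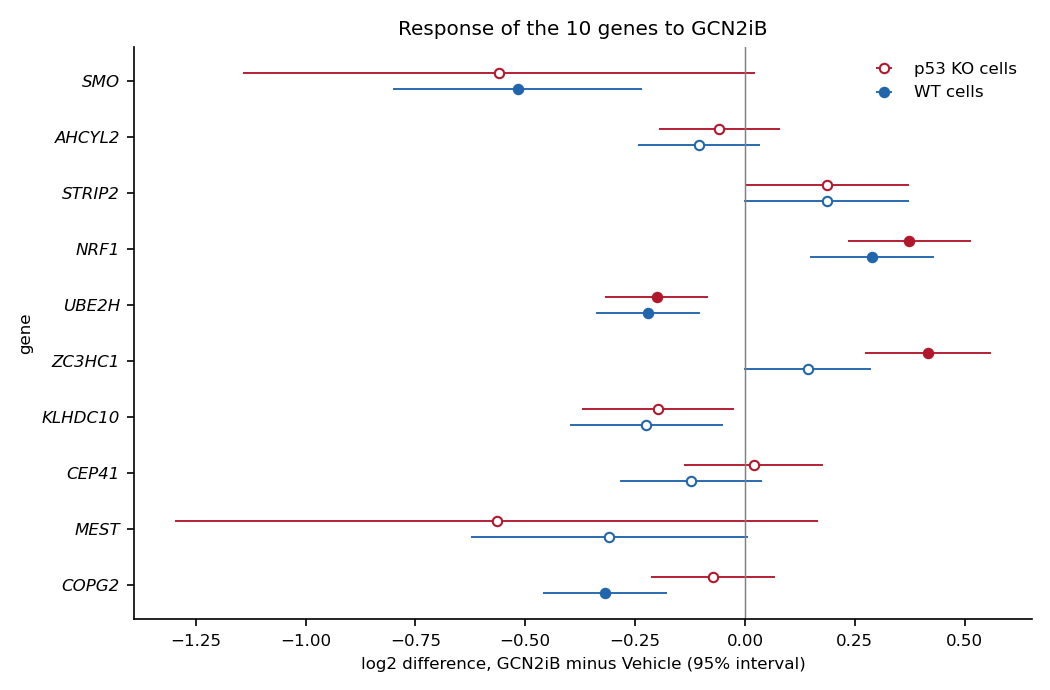
Log2 difference of GCN2iB minus vehicle (horizontal axis) for each of the 10 genes, in p53 KO cells in red above WT cells in blue; bars are 95% confidence intervals and filled points passed an adjusted p of 0.05. NRF1 lies to the right of 0 in both genotypes, at 0.37 and 0.29, and UBE2H to the left in both, at -0.20 and -0.22, while the intervals of SMO and MEST in p53 KO cells are the widest.

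Beside SMO, the other genes of Hedgehog signalling moved in both directions. The list of 36 held ligands, receptors, negative regulators, GLI factors and cilium proteins, of which 28 were tested. Under GCN2iB 4 were higher and 5 lower in p53 KO cells, and under vehicle 5 were higher and 3 lower, which is 32.1% and 28.6% of the tested members, beside 23.9% and 21.7% of all genes. The median log2 difference of the list was 0.00 under GCN2iB and -0.05 under vehicle.

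The ligands SHH, IHH and DHH were close to absent, with 0 to 8 reads in any library, and HHIP, a ligand-binding inhibitor, had 0 reads throughout. GAS1, a co-receptor that binds the ligands at the cell surface, had the largest difference of the list. It had 2.85, 3.04, 2.88 and 2.59 CPM in p53 KO cells with GCN2iB against 0.372, 0.370, 0.289 and 1.56 CPM in WT cells with GCN2iB. With vehicle it had 2.41, 3.23, 2.56 and 2.92 CPM in p53 KO cells against 0.304, 0.383, 0.343 and 0.193 CPM in WT cells. All KO libraries were above all WT libraries, and the 1 WT library that stood apart, WT GCN2iB 4, lay between the groups. GAS1 was higher in p53 KO cells by 2.05 log2 under GCN2iB (adjusted p = 8.5e-05), or by 3.01 without that library, and by 3.17 under vehicle (adjusted p = 2.15e-06).

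PTCH1, the receptor that holds SMO back and a direct target gene of GLI factors, had 21.2, 17.97, 17.4 and 16.3 CPM in p53 KO cells with GCN2iB against 24.0, 23.8, 22.2 and 19.1 CPM in WT cells with GCN2iB. With vehicle it had 24.2, 23.1, 22.7 and 23.7 CPM in p53 KO cells against 27.99, 30.8, 29.97 and 25.3 CPM in WT cells. The vehicle groups did not overlap, and the GCN2iB groups did. PTCH1 was lower in p53 KO cells by 0.28 log2 under each treatment (adjusted p = 0.0209 with GCN2iB and 0.0191 with vehicle), a call kept in 4 and in 5 of the 8 fits that left out 1 of the libraries compared, with adjusted p-values up to 0.0605 and 0.0712. GCN2iB lowered PTCH1 in both genotypes, by 0.36 log2 each (adjusted p = 0.00524 in p53 KO and 0.00381 in WT cells). GLI1, the other classical target gene, had 0.376 CPM in p53 KO and 0.432 CPM in WT cells with GCN2iB, and 0.585 and 0.593 CPM with vehicle. Its 95% interval under vehicle was -0.67 to 0.57 log2, so a difference of either sign within these bounds was not resolved at this level.

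GPR161, a ciliary receptor that restrains the pathway, was higher in p53 KO cells by 0.29 log2 under GCN2iB (adjusted p = 0.00939) and by 0.46 under vehicle (adjusted p = 0.000152). DISP1, which releases the lipid-bearing ligands from cells, was higher by 0.33 (adjusted p = 0.00884) and by 0.44 (adjusted p = 0.000713), the call under GCN2iB ending without WT GCN2iB 2 at an adjusted p of 0.05002. SUFU, the inhibitor that binds GLI factors, was lower by 0.18 log2 (adjusted p = 0.0209) and by 0.17 (adjusted p = 0.0299), though the call was kept in 7 and in 3 of the 8 fits that left out a library, with adjusted p-values up to 0.0870 and 0.0732. ULK3, a kinase of GLI factors, was lower by 0.31 log2 (adjusted p = 0.00244) and by 0.33 (adjusted p = 0.00152). EVC, a ciliary partner of SMO, passed as lower under GCN2iB, at 18.4 CPM in p53 KO cells against 27.2 CPM in WT cells (adjusted p = 0.00206), and did not pass under vehicle (adjusted p = 0.282), a contrast between treatments that did not itself pass (adjusted p = 0.520). GLI3, which acts mainly as the pathway's repressor, did not differ by genotype past the test, but was higher with GCN2iB in both: 11.5 CPM against 7.17 CPM with vehicle in p53 KO cells (0.69 log2, adjusted p = 4.84e-05), and 11.1 CPM against 6.24 CPM in WT cells (0.84 log2, adjusted p = 4.55e-06).

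**Figure D4:**
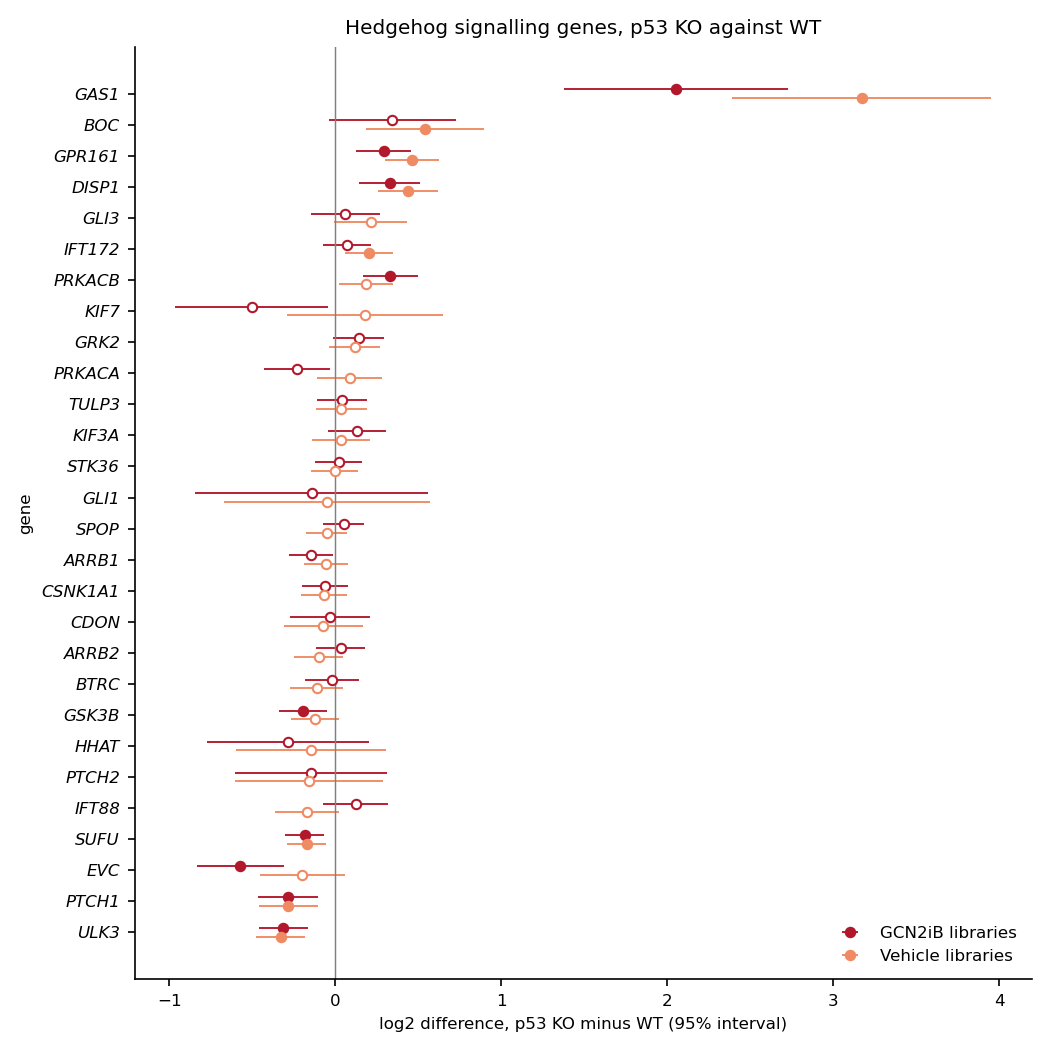
Log2 difference of p53 KO minus WT (horizontal axis, bars are 95% confidence intervals) of the 28 tested Hedgehog genes other than SMO, with the GCN2iB libraries in dark red above the vehicle libraries in orange; filled points passed an adjusted p of 0.05. GAS1 stands apart at 2.05 and 3.17, and every other gene lies between -0.57 and 0.54.

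Imprinted genes elsewhere in the genome were looked at beside MEST, and they too moved both ways. Of 40 listed, 28 were tested. Under GCN2iB 2 were higher and 8 lower in p53 KO cells, and under vehicle 4 were higher and 6 lower, 35.7% of the tested members in each, beside 23.9% and 21.7% of all genes. The median log2 difference of the list was -0.04 and 0.09. Several of the untested, H19, DLK1 and MEG3 among them, did not pass the filter on low counts.

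NAP1L5, a paternally expressed gene within an intron of HERC3, came closest to MEST in size. It had 0.502, 0.666, 0.864 and 0.582 CPM in p53 KO cells with GCN2iB against 4.59, 3.97, 5.85 and 3.98 CPM in WT cells with GCN2iB, and its 4 KO libraries were all below the 4 WT libraries. With vehicle it averaged 0.736 ± 0.157 CPM in p53 KO cells and 4.63 ± 0.573 CPM in WT cells. The log2 difference was -2.86 under GCN2iB (adjusted p = 1.71e-10) and -2.64 under vehicle (adjusted p = 1.69e-10).

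PEG3, a paternally expressed zinc finger gene, had 20.5, 19.4, 20.2 and 8.91 CPM in p53 KO cells with GCN2iB against 56.9, 64.7, 58.8 and 49.8 CPM in WT cells with GCN2iB. With vehicle it averaged 24.3 ± 3.38 CPM in p53 KO cells and 72.5 ± 12.6 CPM in WT cells. It was lower by 1.75 log2 under GCN2iB (adjusted p = 4.33e-05), or by 1.52 without p53 KO GCN2iB 4, the one low library of its group, and by 1.57 under vehicle (adjusted p = 8.09e-05). FAM50B, a paternally expressed retrogene, was lower by 0.74 log2 (adjusted p = 9.9e-06) and by 0.85 (adjusted p = 1.37e-06), and GRB10, an adaptor of insulin and growth factor receptors, by 0.52 (adjusted p = 1.87e-05) and by 0.35 (adjusted p = 0.00144). PEG10, a retrotransposon-derived gene of chromosome 7q21 that is paternally expressed, was higher instead, at 7.26 ± 0.755 CPM in p53 KO cells against 5.00 ± 0.343 CPM in WT cells with GCN2iB and at 6.61 ± 0.395 against 3.58 ± 0.504 CPM with vehicle. Its log2 difference was 0.53 under GCN2iB (adjusted p = 0.000929) and 0.87 under vehicle (adjusted p = 3.12e-06).

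**Figure D5:**
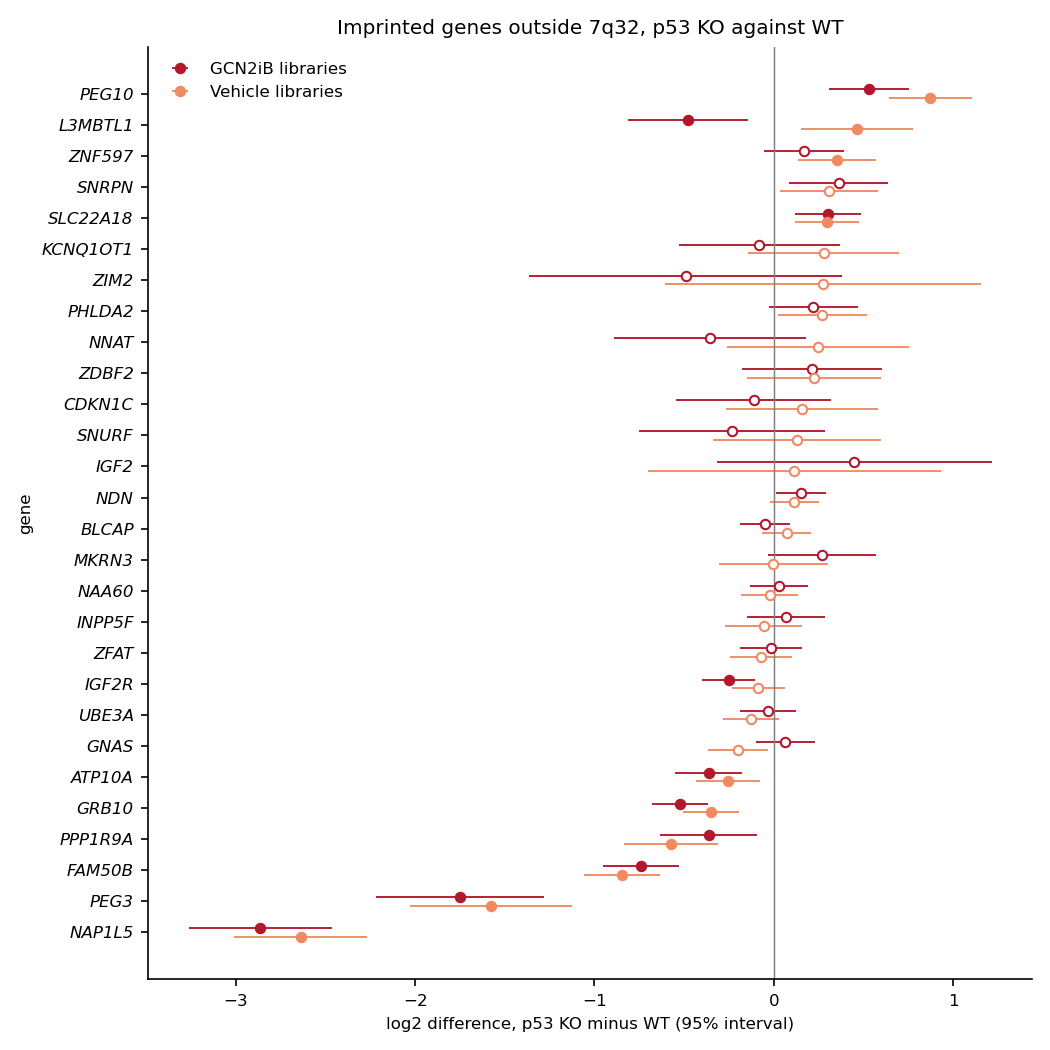
Log2 difference of p53 KO minus WT (horizontal axis, bars are 95% confidence intervals) of the 28 tested imprinted genes outside 7q32, with the GCN2iB libraries in dark red above the vehicle libraries in orange; filled points passed an adjusted p of 0.05. NAP1L5 at -2.86 and -2.64 and PEG3 at -1.75 and -1.57 lie farthest to the left.

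The partners of the neighbours were looked at for the same contrasts. Of the COPI coat and its ARF machinery, the complex of COPG2, 13 of 14 genes were tested. In p53 KO cells 5 were higher and 0 lower under GCN2iB, and 3 were higher and 0 lower under vehicle, 38.5% and 23.1% of the list beside 23.9% and 21.7% of all genes. Over all genes, 12.7% and 9.63% were called higher. COPG1, the paralog of COPG2, had 291 ± 14.1 CPM in p53 KO cells against 251 ± 15.6 CPM in WT cells with GCN2iB (0.21 log2, adjusted p = 0.0153), a call kept in 3 of 8 fits that left out a library and lost, for example, without WT GCN2iB 3 (adjusted p = 0.113). COPG1 was lower with the drug in both genotypes, by 0.25 log2 in p53 KO cells (adjusted p = 0.00519) and by 0.32 in WT cells (adjusted p = 0.000646). COPB1, the beta subunit, was higher in p53 KO cells under GCN2iB by 0.38 log2 (adjusted p = 9.84e-05).

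All 11 genes of the CTLH ligase, the partner of UBE2H, were tested, with 1 higher and 2 lower under GCN2iB and 0 higher and 3 lower under vehicle. That is 27.3% of the list in each, near the 23.9% and 21.7% of all genes, though only 12.1% of all genes were called lower under vehicle. RMND5A, a RING subunit, was lower in p53 KO cells by 0.28 log2 under GCN2iB (adjusted p = 0.00202) and by 0.27 under vehicle (adjusted p = 0.00269). MAEA, the other RING subunit, passed in neither. All 17 STRIPAK genes were tested, of which 2 were higher and 2 lower under GCN2iB and 1 was higher and 1 lower under vehicle, 23.5% and 11.8% of the list beside the same 23.9% and 21.7%. Of the 7 paralogs and partners of AHCYL2, 1 was lower under each treatment (14.3%), beside 11.2% and 12.1% of all genes called lower. AHCY, the S-adenosylhomocysteine hydrolase, was the one lower under vehicle, at 294 CPM in p53 KO cells against 384 CPM in WT cells (-0.39 log2, adjusted p = 0.000182), and AHCYL1 was at 154 to 157 CPM in all 4 groups.

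NRF1 rose with the drug, so its partners and mitochondrial transcription genes were read for the drug response. All 20 were tested. In p53 KO cells 5 were higher and 1 lower with GCN2iB, and in WT cells 6 were higher and 1 lower, 30% and 35% of the list beside 20.1% and 25.2% of all genes. CYCS, the cytochrome c gene and a classical NRF1 target, was higher by 0.36 log2 in p53 KO cells (adjusted p = 0.000135) and by 0.31 in WT cells (adjusted p = 0.000453). SDHB, a subunit of succinate dehydrogenase, was higher by 0.36 (adjusted p = 0.00131) and by 0.34 (adjusted p = 0.00180). CYCS and SDHB were named after their values were seen. TFAM, the mitochondrial transcription factor, passed in neither genotype (0.14 and 0.04 log2). HSPA9 was the gene lower in each genotype (-0.21 log2 in p53 KO cells and -0.30 in WT cells).

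The genes whose pattern over the 16 libraries was most like that of SMO and MEST came from other chromosomes. Likeness was Pearson's r of log2(CPM + 1) over 16 libraries, among 11319 genes with at least 5 CPM in 1 group mean. The libraries share their genotype split, so any gene that is low in p53 KO libraries scores high, and r is given as a description. For SMO the closest were SESN1 (r = 0.992), PCAT1 (0.990), RIPOR2 (0.990), KCNN2 (0.989) and CEL (0.989), and MEST stood at place 10 (r = 0.987). For MEST they were KCNN2 (0.994), SESN1 (0.993), C9orf64 (0.993), PRXL2A (0.992) and SPATA18 (0.991), and SMO stood at place 16. SESN1, which heads or nearly heads both lists, had 17.2 and 19.8 CPM in p53 KO cells with GCN2iB and vehicle, against 55.7 and 67.4 CPM in WT cells. None of the 8 neighbours was among the genes named, which their similar levels in p53 KO and WT cells fixed beforehand, so it adds no support.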

How the data were processed

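RNA from 16 LNCaP samples was sequenced in paired ends. For 62754 Ensembl identifiers, the authors deposited unnormalized counts of reads. Trim Galore, HISAT2, featureCounts, DESeq2 and GRCh38 are named in the submitters' processing notes, without versions. No annotation release or strand setting was given in the sources used here. Total counts were 17418072 to 39915685 per library, which is the depth behind every value, and 0 columns had no sample.

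Symbols came from a gene name table and positions from GENCODE release 29, which matched 58261 identifiers. The analysis used edgeR 4.0.16 (R 4.3.3): genes were kept by filterByExpr (18549), totals were scaled by TMM, and a robust quasi-likelihood model took 1 mean for each group from the 16 libraries together. Tests were two-sided, with Benjamini-Hochberg adjustment across the 18549 genes per contrast and calls at 0.05. CPM are on the scaled totals; values are mean ± SD over 4 libraries, log2 differences are ± SE. The code was tested on simulated data. Python 3.11.15, pandas 2.3.3 and matplotlib 3.10.9 served for tabulation and drawing.

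The members, gene lists and rules were chosen with earlier results of these data known. Named are the 10 genes, the tested genes of their interval, LINC-PINT, the miRNA rows, the nearest tested gene outside, the 5 genes most like SMO and MEST, CDKN1A, and from each list a few genes with the smallest adjusted p in a genotype contrast plus set ones such as GLI1, PTCH1 and COPG1. Some genes that the rule names are not reported here. Genes named for another reason were chosen after their values were seen, namely GLI3, SUFU, the ligands IHH and DHH, HHIP, CYCS, SDHB, CCDC136, CALU, PODXL, ENSG00000230626 and the nearest 2-fold lower genes of the chromosome.

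Alternatives were DESeq2 size factors, library totals, other count filters, the DESeq2 (1.42.0) and limma voom (limma 3.58.1) tests, replicate number as a block, a fit of the compared groups alone, other widths of the neighbourhood, and each library left out.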

Additional observations from a re-analysis of the deposited data

Results flagged for a closer look

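Of 232 groups of 4 libraries (58 named or listed genes in 4 groups), 14 held a library far from the other 3 by Dixon's test at the 95% level; chance alone gives about 1 in 20. Among the 40 groups of the 10 genes there were 2. KLHDC10 had 42.0 CPM in p53 KO GCN2iB 4, against 52.8 to 53.9 CPM in the other 3, and UBE2H had 184 CPM in WT Vehicle 4, against 195 to 196 CPM.

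Several others fell on the same libraries, and p53 KO GCN2iB 4 also stood apart from its group over all genes (chi-square per degree of freedom of 25.9 to 35.0 against the other 3). In p53 KO GCN2iB 4, PEG3 was low at 8.91 CPM (the other 3 were at 19.4 to 20.5), COPG1 was low at 269.6 CPM and ENSG00000273329, a gene of the interval, was high at 15.4 CPM (the others at 10.5 to 11). In WT GCN2iB 4, GAS1 was high at 1.56 CPM (the others at 0.289 to 0.372) and CDKN1A was low at 374.9 CPM (the others at 483 to 501). In p53 KO Vehicle 1, TFAM was at 178.9 CPM, HSPA9, a mitochondrial chaperone, at 579.5 CPM and STK26, a STRIPAK kinase, at 31.5 CPM, each above the other 3. In WT GCN2iB 1, COPB1 was high at 127 CPM and PPP2R1A, a phosphatase scaffold, at 440.5 CPM. In WT Vehicle 1, ARF1 was low at 637.4 CPM, and in p53 KO Vehicle 4 CDKN1A was high at 43.1 CPM.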

How the results depend on the processing

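Under every alternative 0 of the 8 neighbours were called lower in p53 KO cells, and the lowest log2 difference any of them took was -0.14 under GCN2iB and -0.15 under vehicle. The number called higher did move. Under GCN2iB it was 3, but 1 with no filter beyond 1 count and 1 to 4 when a library was left out. Under vehicle it was 1, but 2 with library totals or a minimum mean of 50 counts, 0 with no filter or the compared groups alone, and 0 to 2 when a library was left out. Called genes within 2 Mb numbered 8 under GCN2iB, but 5 with no filter, 15 within 5 Mb, 0 with at least a 2-fold change, and 5 to 11 when a library was left out. Under vehicle they numbered 6, but 10 under the minimum mean of 50, 12 within 5 Mb, 0 with at least a 2-fold change, and 3 to 9 when a library was left out. The interaction called 1 gene of the whole table, but 2 with DESeq2 size factors, 4 with library totals, 47 with no filter, 6 under the minimum mean of 50, 38 by DESeq2's test, 6 without both GCN2iB libraries numbered 4, and 1 to 34 when a library was left out. Values close to 0 changed sign. NRF1 under vehicle was 0.0350 with library totals and 0.0136 under the minimum mean of 50, and ZC3HC1 was 0.0194 with library totals. Leaving out a library, NRF1 ranged from -0.0663 to 0.00148 and KLHDC10 from -0.00119 to 0.117 under vehicle. The drug response of CEP41 in p53 KO cells was -0.0509 with library totals, -0.00997 under the minimum mean of 50, and -0.0365 to 0.0556 when a library was left out. The interaction of SMO ranged from -0.369 to 0.169 and that of MEST from -0.513 to 0.00811 when a library was left out. Of the 5 genes most like SMO, 2 were kept by Spearman's rho and 3 with a minimum of 1 CPM; of those most like MEST, 0 and 3. With library totals, the drug response in p53 KO cells split into 1401 higher and 2672 lower genes, against 2119 and 1615 by TMM. The causes were not tested.

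The replicate numbers were checked for pairing. Same-numbered libraries correlated in their deviations from the group means by -0.06 to 0.62 (median 0.09, 12 of 24 pairs above 0.1). The median of other pairs was -0.04, and 11 of 16 libraries correlated best with their own number, a hint of pairing from the data. Because the labels name no pairing, the samples were taken to share only a number, and the hint was not followed in the main fit. With the replicate block, 5 of the 10 genes were called for the drug response in p53 KO cells and 6 in WT cells, against 3 and 4 without it. STRIP2 (adjusted p = 0.0479 in p53 KO and 0.0426 in WT cells) and KLHDC10 (adjusted p = 0.00672 and 0.00270) passed in both genotypes only with the block. It also called 2 neighbours under vehicle, with AHCYL2 added (adjusted p = 0.0402), 12 genes within 2 Mb under vehicle, and 61 genes for the interaction.

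SMO and MEST had 4 to 29 reads per p53 KO library, so their levels there and any drug response in these cells are poorly resolved. The labels name neither clones nor separate cultures, and the genotype differences belong to these cells as much as to the edited gene.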
